A study of Drosophila melanogaster with 102 samples.

Results

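The comparison describes how the transcriptome of control male flies differed between late and early adult life. It sets sons of control-diet mothers at day 50 (CD_Day_50_Male_Progeny, libraries m31 to m35) against sons of control-diet mothers at day 10 (CD_Day_10_Male_Progeny, libraries m16 to m20). Which libraries belong to it was read from the labels, 5 libraries a day, and they make up 10 of the 102 libraries of the series, 87 of which are progeny. In the study, female Drosophila melanogaster were kept for 7 days on a control diet (CD), a high sugar diet (HSD) or a high fat diet (HFD) and mated with males fed CD. Their sons and daughters lived on CD under light/dark cycles at 25 °C and were sequenced as whole animals. The flies compared carried the strain label W1118 and the genotype label white mutant. Both parents of the CD sons had the control diet, and the labels give no batch or date, so that anything else that went with the day cannot be told apart from age. For comparison, HFD sons (3 libraries at day 50, 5 at day 10), HSD sons (6 at day 50, 5 at day 10, 1 of them with the strain label W1119) and CD daughters (5 at each day) were used. Of the fits, CD sons of day 0 (5 libraries) entered only the alternative with all 15 CD sons. They were left out elsewhere because some of their libraries held female transcripts in an earlier analysis of these data. The alternative fit with the sons of the 3 maternal diets held all sons of day 10 and 50. Among them were 2 HSD libraries, m27 and m45, that went against their day label, as described below. Because whole flies were extracted, fewer cells of a type and less RNA per cell cannot be told apart. Nothing in the labels states that the libraries of a group come from flies reared apart, nor how many flies went into each, so p-values measure the spread between these libraries.

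Several systems are known to change as flies age. The testis makes sperm throughout adult life from stem cells, with spermatocytes that transcribe a large set of testis-specific genes and spermatids that hold their messages for later translation, while the accessory gland and ejaculatory bulb make the proteins of the seminal fluid. Innate immunity rests on the Toll and Imd pathways, which end in NF-κB factors and antimicrobial peptides, on JAK-STAT cytokines, and on antiviral defence by small interfering RNAs and by STING, a sensor of cyclic dinucleotides. Flight muscle, rich in mitochondria, accounts for much of the oxidative metabolism of the adult.

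The libraries held between 7661582 and 14468040 counts, with a count for 13109 to 13498 genes. Levels are given as counts per 1000000 counts of the library (CPM), scaled by TMM factors, and means as mean ± SD (n = 5 libraries a day). Changes are given as the log2 fold change of day 50 over day 10 ± SE. Tests are edgeR's quasi-likelihood F tests, with p-values adjusted by the Benjamini-Hochberg method over the 12399 genes tested. The SE is not an output of edgeR. It was derived as the absolute log2 fold change divided by the square root of the F statistic. "Rose" and "fell" mean an adjusted p below 0.05. The sex label was checked on marker genes. Acp36DE, a seminal fluid protein, lay between 317 and 992 CPM at day 50 and between 1031 and 1683 CPM at day 10. The female germline gene osk did not exceed 0.43 CPM in any of the 10 libraries. Each library correlated best with a group of its own day, but m32 and m33 lay closest to the day-50 HSD sons and m16, m17 and m20 to the day-10 HFD sons. Libraries m31 and m35 stood apart from the other day-50 libraries on the first principal component, which carried 84.0% of the variance, and m18 stood apart from the other day-10 libraries in antimicrobial peptide genes. Results that rest most on these libraries are given with and without them.

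Most genes of CD sons differed between the days. At day 50, 4176 genes had risen (33.7% of those tested) and 4048 had fallen (32.6%), so that 66.3% were called. Without m31 and m35, 8078 genes were called (64.4%), against 8224 with them. Which direction held more genes depended on the scaling and the libraries. With median-of-ratios scaling 3924 rose and 4256 fell, and with DESeq2 4019 rose and 4332 fell. Without m31 and m35, 3887 rose and 4191 fell. More genes fell than rose without any single day-50 library, and more rose than fell without any single day-10 library. In 3170 genes (25.6%) every day-50 library lay above every day-10 library, and in 3446 genes (27.8%) every day-50 library lay below. The falls were the larger changes: of the 3518 called genes that moved more than 2-fold, 941 rose and 2577 fell, and beyond 8-fold 78 rose and 1414 fell. The count of falls beyond 8-fold rested on m31 and m35. Without them 88 rose and 384 fell beyond 8-fold, and of 3550 called genes that moved more than 2-fold 883 rose and 2667 fell. Counts of list members below are to be read against these shares.

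Defence and neuronal genes were among the 10 genes with the smallest p-values, 8 of which rose. These 10 were taken from called genes with a mean of at least 1 CPM and days that did not overlap. Their lack of overlap was therefore required and is no further result. The same holds for the 10 largest rises and the 10 largest falls below. Charon, an ankyrin-repeat protein that works with NF-κB factors (FBgn0031317, annotated on chromosome arm 2L from base 1170753 to base 1172805 in BDGP6.54), had 104, 94.9, 107, 116 and 91.8 CPM in m31 to m35 at day 50, against 12.6, 13.5, 13.9, 13.5 and 14 CPM in m16 to m20 at day 10. It rose (log2 fold change 2.92 ± 0.084, adjusted p = 1.13e-07), and the days were far apart with little spread in either. Tspo, the translocator protein of the mitochondrial outer membrane (FBgn0031263, chromosome arm 2L, bases 559612 to 560523), had 405, 347, 346, 392 and 366 CPM in m31 to m35 at day 50, against 105, 101, 95.2, 107 and 102 CPM in m16 to m20 at day 10. All 5 day-50 libraries lay above all 5 day-10 libraries (log2 fold change 1.86 ± 0.068, adjusted p = 5.86e-07). Arc1 and Arc2, neuronal proteins related to retrotransposon Gag that form capsids, rose together. Arc1 averaged 4288 ± 635 CPM at day 50 and 387 ± 66.8 CPM at day 10 (log2 fold change 3.47 ± 0.16, adjusted p = 1.22e-06). Arc2 averaged 64.8 ± 9.57 CPM at day 50 and 9.55 ± 0.61 CPM at day 10 (log2 fold change 2.76 ± 0.12, adjusted p = 8.95e-07). The cytochrome P450 Cyp304a1 averaged 37.6 ± 8.16 CPM at day 50 and 1.51 ± 0.26 CPM at day 10 (log2 fold change 4.65 ± 0.20, adjusted p = 8.95e-07). CG17264, with 72.8 ± 10.5 CPM at day 50 and 8.20 ± 0.76 CPM at day 10, and CG10638, with 107 ± 8.81 CPM at day 50 and 36.2 ± 1.40 CPM at day 10, also rose. The 2 that fell were Scp1, a sarcoplasmic calcium-binding protein, and cnn, the centrosome component centrosomin. Scp1 had 61.9, 46.7, 51.5, 59.2 and 53.1 CPM in m31 to m35 at day 50, against 1648, 1485, 1083, 1382 and 898 CPM in m16 to m20 at day 10, without overlap between the days (log2 fold change -4.58 ± 0.19, adjusted p = 8.95e-07). In cnn the mean was 95.7 ± 4.30 CPM at day 50 and 234 ± 7.24 CPM at day 10 (log2 fold change -1.29 ± 0.055, adjusted p = 8.95e-07).

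Sting, the remaining gene of these 10, is the fly STING gene of antiviral defence. It had 77.1, 66.5, 83.5, 82.2 and 82.7 CPM in m31 to m35 at day 50, against 16.4, 13.3, 14.5, 11.4 and 15.4 CPM in m16 to m20 at day 10. Every day-50 library was above every day-10 library, as its selection required (log2 fold change 2.47 ± 0.12, adjusted p = 1.51e-06). The cGAS-like receptor cGlr1, which makes the cyclic dinucleotide that STING senses, had 266 counts over the day-50 libraries and 3 over the day-10 libraries, a ratio of 94.8 with a 95% counting interval between 32.1 and 462. The genes named in the rest of this paragraph were chosen after their values were seen. Nazo, an antiviral effector that acts downstream of STING (FBgn0037562, chromosome arm 3R, bases 8287876 to 8288613), had 61.5, 61.8, 102, 114 and 68.0 CPM in m31 to m35 at day 50, against 0.91, 1.06, 2.22, 0.75 and 3.32 CPM in m16 to m20 at day 10. The highest day-10 library lay far below the lowest day-50 library (log2 fold change 5.57 ± 0.43, adjusted p = 1.02e-05). The STING-regulated genes Srg1, Srg2 and Srg3 rose by 2.996, 5.05 and 1.99 on the log2 scale, and Srg2, with 136, 167, 235, 521 and 252 CPM in m31 to m35 at day 50, against 1.30, 1.99, 4.37, 14.3 and 17.6 CPM in m16 to m20 at day 10, had the widest spread of the 3. Mov10 averaged 33.8 ± 12.2 CPM at day 50 and 0.93 ± 0.43 CPM at day 10 (log2 fold change 5.14 ± 0.41, adjusted p = 1.06e-05). Among other virus-responsive genes, Vago rose by 2.41, vir-1 by 1.74 and pst, which restricts picorna-like viruses, by 1.44, with adjusted p between 6.67e-06 and 7.27e-05. In the small interfering RNA pathway, the slicer AGO2 averaged 453 ± 62.8 CPM at day 50 and 235 ± 20.1 CPM at day 10. The dicer Dcr-2 averaged 89.9 ± 8.79 CPM at day 50 and 48.2 ± 6.02 CPM at day 10. Both rose (log2 fold change 0.95 ± 0.11, adjusted p = 6.07e-05 for AGO2, log2 fold change 0.90 ± 0.10, adjusted p = 7.46e-05 for Dcr-2).

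**Figure D1:**
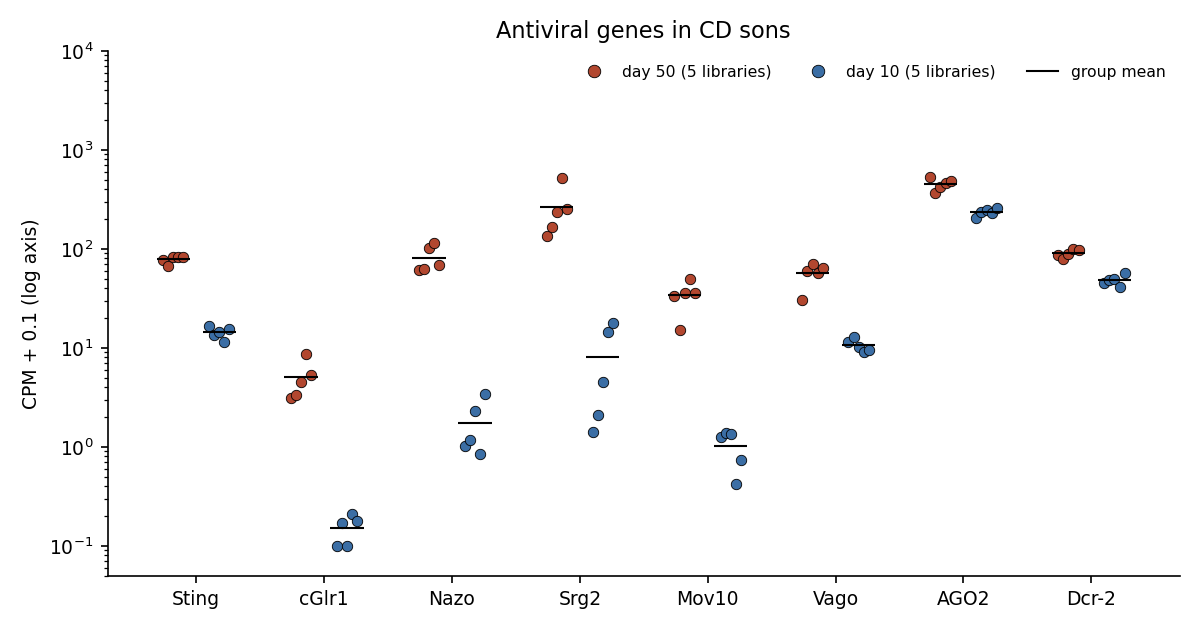
Levels of STING-related and antiviral genes in each library of CD sons. The vertical axis is CPM on a log axis, with 0.1 added so that zeros can be drawn. Each point is 1 library (5 at day 50, left, and 5 at day 10, right, for each gene) and the bar is the mean. The days do not overlap in any of the 8 genes drawn, but each was named by a rule that required this or chosen after its values were seen. Over all genes, 25.6% were higher and 27.8% lower at day 50 without overlap. The day-50 points of Sting sit at or above 66.5 CPM, up to 83.5 CPM.

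The 10 largest rises were in genes with very low levels in most day-10 libraries. CG17191 had no count in any day-10 library and 339 counts over the day-50 libraries, at least 121-fold higher when the day-10 group is set to the 3 counts over the group that a count of 0 allows. That bound pools the day-50 libraries, of which m31 had 14.4 CPM and the others between 2.24 and 4.83 CPM. Drsl3, a drosomycin-like peptide, had 266 counts at day 50 and 1 at day 10, a ratio of 284 with a 95% counting interval between 50.6 and 11270. Its highest day-50 library was m33 at 11.9 CPM, against 1.58 to 4.18 CPM in the others. CG34005 had 142 counts at day 50 and 1 at day 10, a ratio of 152 with a 95% counting interval between 26.8 and 6037. These intervals cover counting error only. Drsl2, a relative of Drsl3, had 21.5, 22.4, 108, 36.8 and 28.9 CPM in m31 to m35 at day 50, against 0.13, 0.35, 0, 0 and 0.32 CPM in m16 to m20 at day 10, with m33 the highest and 2 day-10 libraries at 0 (log2 fold change 7.91 ± 0.79, adjusted p = 3.39e-05, and 7.20 without m33). LysX, a lysozyme, had 2.44, 6.20, 23.9, 215 and 6.90 CPM in m31 to m35 at day 50, against 0.39, 0.50, 0.35, 0.97 and 0.16 CPM in m16 to m20 at day 10. It rose (log2 fold change 6.77 ± 1.48, adjusted p = 0.00254), but m34 held most of its level, and without m34 the log2 fold change was 4.42. Of the 7 lysozyme genes listed 6 were tested. LysX was the only 1 that rose and 3 fell, with a median log2 fold change of -1.31, where 33.7% of all genes rose and 32.6% fell. CG10814 varied as widely as LysX, from 2.37 to 68.6 CPM at day 50 and up to 0.21 CPM at day 10. Its log2 fold change of 7.49 was 6.20 without m31. CG7017 (7.31), CG14499 (6.14) and CG5070 (5.97) completed the 10 largest log2 rises. CG14499 and CG5070 were highest at day 10 in m20, and without m20 their log2 fold changes were 8.09 and 7.02.

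The 10 largest falls included a cuticle protein gene, a neuropeptide gene and a gene of a secreted protein. Ccp84Ag, a cuticle protein gene, had 1 count over the day-50 libraries and 144 over the day-10 libraries, a ratio of 0.0074 with a 95% counting interval between 0.00019 and 0.042. CG43249 had 3 at day 50 and 413 at day 10, a ratio of 0.0078 with a 95% counting interval between 0.0016 and 0.023. AstCC, which encodes the neuropeptide allatostatin double C, had 0, 0.51, 0.32, 0 and 0.099 CPM in m31 to m35 at day 50, against 6.23, 3.90, 5.34, 6.01 and 4.35 CPM in m16 to m20 at day 10, with 2 day-50 libraries at 0 (log2 fold change -4.72 ± 0.55, adjusted p = 8.10e-05, and -5.42 without m32). scpr-A, a cysteine-rich secreted protein, had 0.96, 3.46, 13.1, 6.18 and 19.1 CPM in m31 to m35 at day 50, against 266, 224, 234, 226 and 236 CPM in m16 to m20 at day 10. Its day-10 libraries were close together and its day-50 libraries were 10 or more CPM in m33 and m35 alone (log2 fold change -4.79 ± 0.65, adjusted p = 0.000193). CG12374, CG14635, CG17192, CG32523, CG43271 and CG43694 fell, with log2 fold changes between -5.62 and -4.68. Single libraries set part of these sizes: without m31, the only day-50 library of CG17192 above 1 CPM, its log2 fold change was -8.34, without m32 those of CG43694 and CG43271 were -6.83 and -5.53, and without m35 that of CG14635 was -5.81.

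Genes of sperm production fell together. All 38 spermatid and sperm genes of the list were tested and all 38 fell, with a median log2 fold change of -3.51, where 32.6% of all genes fell and the median over all genes was 0.05. Their levels in the day-50 libraries spread widely. The summed level of the list was 184, 2879, 2569, 1282 and 249 CPM in m31 to m35, against 19080, 16770, 15240, 15140 and 15770 CPM in m16 to m20. Libraries m31 and m35 were the lowest, and the highest day-50 library was still far below the lowest day-10 library. betaTub85D, the testis-specific beta-tubulin of the sperm axoneme (FBgn0003889, chromosome arm 3R, bases 9408383 to 9410282), had 6.79, 123, 103, 47.1 and 4.24 CPM in m31 to m35 at day 50, against 849, 736, 757, 642 and 792 CPM in m16 to m20 at day 10 (log2 fold change -3.73 ± 0.84, adjusted p = 0.003). Without m31 and m35 its log2 fold change was -3.02 (adjusted p = 3.04e-05), all 38 genes of the list still fell, and their median was -2.80. The list members with the smallest p-values fell less and varied less between libraries. gdl, a gonad-expressed gene, averaged 17.6 ± 6.70 CPM at day 50 and 99.9 ± 10.8 CPM at day 10 (log2 fold change -2.51 ± 0.26, adjusted p = 3.69e-05). The male-specific transcript Mst36Fa averaged 6.08 ± 3.57 CPM at day 50 and 42.1 ± 4.14 CPM at day 10, Mst36Fb, of the same kind, averaged 12.8 ± 7.81 CPM at day 50 and 98.7 ± 21.7 CPM at day 10. The gene djl, a relative of the sperm protein don juan, averaged 18.97 ± 11.8 CPM at day 50 and 180 ± 38.9 CPM at day 10 (log2 fold change -3.24 ± 0.46, adjusted p = 0.000254). Atg8b, the Atg8 gene of the male germline, had 0.61, 10.1, 7.16, 3.43 and 0.49 CPM in m31 to m35 at day 50, against 78.4, 66.8, 58.1, 53.8 and 56.3 CPM in m16 to m20 at day 10 (log2 fold change -3.85 ± 0.70, adjusted p = 0.000897), again lowest in m31 and m35, and its log2 fold change was -3.15 without them.

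Spermatocyte genes fell less than spermatid genes in the same libraries. Of 18 listed, 17 were tested and 16 fell, with a median log2 fold change of -1.55. The summed level of this list was 206, 257, 291, 263 and 178 CPM in m31 to m35, against 827, 773, 781, 722 and 762 CPM in m16 to m20. Libraries m31 and m35 were again the lowest but stood closer to the rest. Without them 15 fell and the median was -1.21. CycB, a cyclin of the meiotic divisions, averaged 12.7 ± 8.64 CPM at day 50 and 49.4 ± 1.88 CPM at day 10 (log2 fold change -1.95 ± 0.43, adjusted p = 0.00259). The gene can, a testis-specific TAF (TBP-associated factor) needed for spermatocyte transcription, averaged 3.07 ± 1.81 CPM at day 50 and 9.38 ± 2.34 CPM at day 10 (log2 fold change -1.61 ± 0.38, adjusted p = 0.00401). comr, a component of the testis meiotic arrest complex, fell (log2 fold change -1.06 ± 0.36, adjusted p = 0.0241), a call lost without m31, m35, m18 or m19 (adjusted p between 0.0531 and 0.0599) and without m31 and m35 together (adjusted p = 0.12). Taf12L, another testis TAF, did not pass the test (log2 fold change -0.18 ± 0.42, adjusted p = 0.72). Its day-50 levels ran between 3.65 and 24.6 CPM and its day-10 levels between 10.8 and 12.98 CPM, and without m34, its highest library, it fell (log2 fold change -0.76, adjusted p = 0.0398).

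Seminal fluid genes fell too, by a smaller factor and without the split between m31, m35 and the rest. Of 51 tested, 35 fell and 3 rose, with a median log2 fold change of -0.85. The summed level was 2331, 4243, 2045, 3967 and 4797 CPM in m31 to m35, against 7596, 6358, 5787, 7225 and 7071 CPM in m16 to m20. Library m35 had the highest sum at day 50, although it was among the lowest in spermatid genes. Acp54A1, an accessory gland peptide, had 4.27, 6.81, 3.86, 11.04 and 12.2 CPM in m31 to m35 at day 50, against 41.7, 55.6, 67.5, 29.96 and 72.2 CPM in m16 to m20 at day 10 (log2 fold change -2.81 ± 0.39, adjusted p = 0.000202). Sfp24F, Sfp35C and Acp95EF fell, with log2 fold changes of -1.65, -1.85 and -1.41. Acp36DE, which helps the female to store sperm, averaged 642 ± 285 CPM at day 50 and 1413 ± 257 CPM at day 10 (log2 fold change -1.14 ± 0.30, adjusted p = 0.00725). SP, the sex peptide, chosen after its values were seen, averaged 49.99 ± 12.8 CPM at day 50 and 99.2 ± 14.2 CPM at day 10 (log2 fold change -0.99 ± 0.20, adjusted p = 0.00148). Acp26Ab went the other way, with 195, 293, 263, 370 and 436 CPM in m31 to m35 at day 50, against 138, 94.6, 99.7, 121 and 112 CPM in m16 to m20 at day 10 and no overlap between the days (log2 fold change 1.46 ± 0.21, adjusted p = 0.000243). Sfp79B and Sfp93F were the other 2 that rose. In the ejaculatory bulb, EbpII and Ebp, proteins of the ejaculatory bulb secretion, fell, with log2 fold changes of -1.83 and -1.42. Gld, a glucose dehydrogenase of the ejaculatory duct, rose by 1.18. The other 4 of the 7 genes of that list did not pass the test, and 2 rose without m33. Yp1, a yolk protein gene that males express weakly, averaged 10.3 ± 6.19 CPM at day 50 and 1.58 ± 0.91 CPM at day 10 (log2 fold change 2.71 ± 0.56, adjusted p = 0.00189). Its lowest day-50 library lay below its highest day-10 library, and the rise did not pass with all 15 CD sons in the fit (adjusted p = 0.0866).

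**Figure D2:**
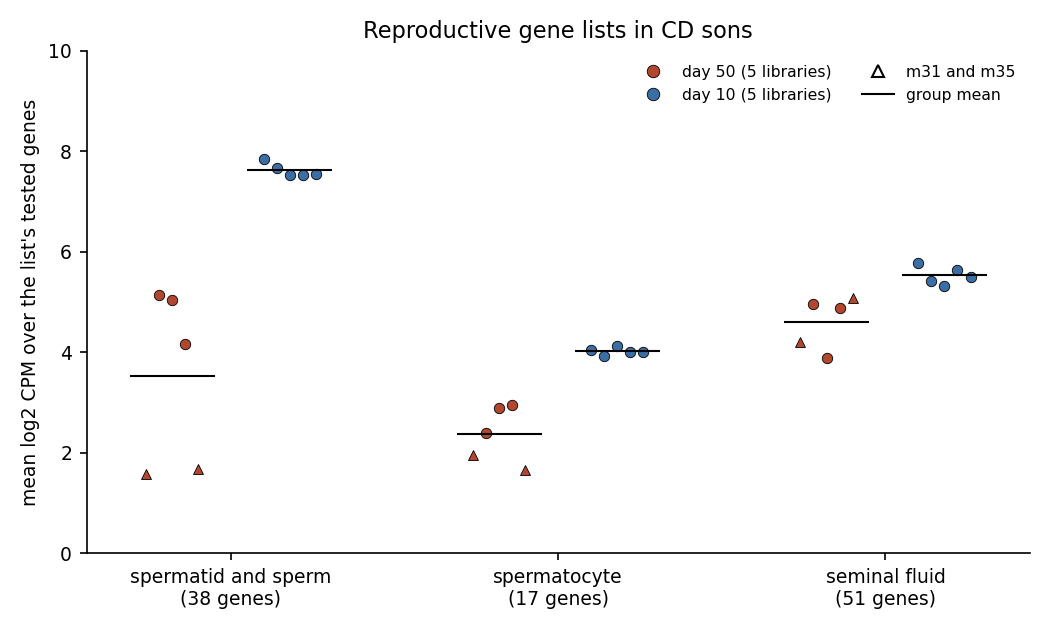
Reproductive gene lists in each library of CD sons. The vertical axis is the mean log2 CPM over the tested members of a list (38 spermatid and sperm, 17 spermatocyte and 51 seminal fluid genes). Each point is 1 library, day 50 left and day 10 right, with m31 and m35 drawn as triangles and the bar at the group mean. In spermatid genes the day-50 libraries sit between 1.57 and 5.14 and the day-10 libraries between 7.52 and 7.85.

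Signalling genes of the immune pathways rose at day 50 in most cases. Of the 22 peptidoglycan recognition and Imd pathway genes tested, of 23 listed, 16 rose and 1 fell, with a median log2 fold change of 0.70, against 33.7% of all genes that rose. key, the regulatory subunit of the IKK complex, had 121, 98.2, 115, 122 and 111 CPM in m31 to m35 at day 50, against 41.5, 46.1, 41.6, 39.8 and 43.3 CPM in m16 to m20 at day 10, with the days far apart (log2 fold change 1.42 ± 0.078, adjusted p = 3.55e-06). Rel, the NF-κB factor Relish, had 486, 392, 345, 352 and 374 CPM in m31 to m35 at day 50, against 98.5, 102, 184, 108 and 107 CPM in m16 to m20 at day 10. Every day-50 library lay above every day-10 library, of which m18 was the highest (log2 fold change 1.70 ± 0.19, adjusted p = 5.72e-05). The receptor PGRP-LC rose by 0.92, PGRP-LA by 1.03 and the kinase Tak1 by 0.68. PGRP-SC1a, an enzyme that breaks down peptidoglycan, was the one that fell, averaging 4.49 ± 3.14 CPM at day 50 and 48.2 ± 38.9 CPM at day 10 (log2 fold change -3.42 ± 0.67, adjusted p = 0.00133), and 2 fell without m33, m34 or m20. In the Toll pathway 13 of 16 genes rose and none fell, with a median of 0.55. Its NF-κB factors dl and Dif rose by 0.79 and 0.50, their inhibitor cact by 0.68, the adaptors Myd88 and tub by 0.89 and 0.48, and the ligand spz by 0.67, with adjusted p between 7.38e-05 and 0.00213. The protease grass, which acts upstream of spz, averaged 26.7 ± 4.39 CPM at day 50 and 24.01 ± 1.90 CPM at day 10 and did not pass the test (adjusted p = 0.28).

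The effector genes of these pathways were high at day 50, but one day-10 library was high as well. The mean log2 CPM of the tested antimicrobial peptide genes was 5.13, 5.86, 5.55, 5.96 and 5.51 in m31 to m35, against 0.79, 0.95, 5.35, 0.72 and 0.82 in m16 to m20. Library m18 therefore overlapped with day 50, while the other 4 day-10 libraries lay far below. Of 21 genes listed, 19 were tested, 7 rose and 2 fell, with a median log2 fold change of 2.23. Without m18, 16 rose and the median was 6.64, and without m19, 4 rose. AttD, an attacin, had 26.4, 20.1, 23.97, 48.8 and 15.6 CPM in m31 to m35 at day 50, against 0.39, 0.14, 12.97, 1.503 and 2.61 CPM in m16 to m20 at day 10 (log2 fold change 2.88 ± 0.88, adjusted p = 0.0149), and 4.54 without m18. The next 5 genes were chosen after their values were seen. Dro, the peptide drosocin, had 591, 550, 912, 531 and 358 CPM in m31 to m35 at day 50, against 1.30, 1.28, 212, 0.64 and 0.79 CPM in m16 to m20 at day 10. Its days did not overlap, but m18 lay far above the other day-10 libraries, and the change did not pass the test (log2 fold change 3.76 ± 1.60, adjusted p = 0.0597). Without m18 it did (9.22, adjusted p = 5.78e-06). DptA and DptB, the diptericins, reached 790 and 337 CPM in m34 at day 50 and 236 and 303 CPM in m18 at day 10, and their log2 fold changes of 2.88 and 1.78 did not pass (adjusted p = 0.12 and 0.34) and became 7.84 and 7.60 without m18. AttA and Mtk did not pass with m18 (adjusted p = 0.41 and 0.0998) and passed without it (1.51e-05 and 6.91e-05). Drsl4 and Drsl5, drosomycin-like peptides, fell, with log2 fold changes of -1.61 and -0.79.

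The Bomanins and Daisho peptides, short secreted products of Toll signalling, rose with less dependence on m18. Of 14 tested, 13 rose and none fell, with a median log2 fold change of 2.07, which was 1.37 without m32. The summed level was 2825, 9851, 4036, 3305 and 3094 CPM in m31 to m35, against 971, 1089, 2087, 842 and 1139 CPM in m16 to m20, highest in m32 and, at day 10, in m18. BomS6 averaged 112 ± 8.82 CPM at day 50 and 58.0 ± 8.80 CPM at day 10 (log2 fold change 0.95 ± 0.11, adjusted p = 8.14e-05, and adjusted p = 0.0578 with the sons of the 3 maternal diets in the fit). BomS3 averaged 645 ± 361 CPM at day 50 and 146 ± 72.7 CPM at day 10 (log2 fold change 2.14 ± 0.40, adjusted p = 0.00101). Dso1, a Daisho peptide, averaged 797 ± 499 CPM at day 50 and 177 ± 78.1 CPM at day 10 (log2 fold change 2.17 ± 0.42, adjusted p = 0.00127). BomBc1 rose (log2 fold change 2.87 ± 0.91, adjusted p = 0.0183) but did not pass without m32 (1.59, adjusted p = 0.0638; 3.94 without m18). BomT1 did not pass (log2 fold change 1.38 ± 0.71, adjusted p = 0.11) but did without m18 (2.66, adjusted p = 0.00225). Attacins, Bomanins and other genes of near-identical sequence share reads, so that the split between the members of such a family is uncertain.

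Cytokines of the JAK-STAT pathway changed in opposite directions. Of 15 genes listed, 11 were tested, 7 rose and 1 fell, with a median of 0.95. upd3, an interleukin-like ligand induced by stress and infection (FBgn0053542, chromosome X, bases 18277233 to 18284596), had 8.53, 4.27, 10.3, 8.85 and 7.98 CPM in m31 to m35 at day 50, against 0.39, 0.14, 0.56, 0.32 and 0.32 CPM in m16 to m20 at day 10, without overlap (log2 fold change 4.50 ± 0.34, adjusted p = 9.60e-06). upd2 averaged 3.40 ± 2.28 CPM at day 50 and 0.15 ± 0.19 CPM at day 10 (log2 fold change 4.26 ± 0.69, adjusted p = 0.000509, and 5.46 without m18). upd1, the ligand with developmental roles, had 0.52, 1.02, 1.05, 0.67 and 0.099 CPM in m31 to m35 at day 50, against 8.96, 6.67, 7.35, 8.38 and 5.22 CPM in m16 to m20 at day 10, again without overlap but lower at day 50 (log2 fold change -3.41 ± 0.38, adjusted p = 6.07e-05). The receptor dome rose by 0.95, the transcription factor Stat92E by 0.43 and the feedback inhibitor Socs36E by 2.22. Socs36E averaged 97.2 ± 28.4 CPM at day 50 and 20.8 ± 2.13 CPM at day 10. TotM, a Turandot stress peptide, averaged 35.7 ± 26.9 CPM at day 50 and 5.17 ± 5.98 CPM at day 10 (log2 fold change 2.83 ± 0.80, adjusted p = 0.0104), with m16 the highest day-10 library at 15.6 CPM and a log2 fold change of 3.77 without it.

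**Figure D3:**
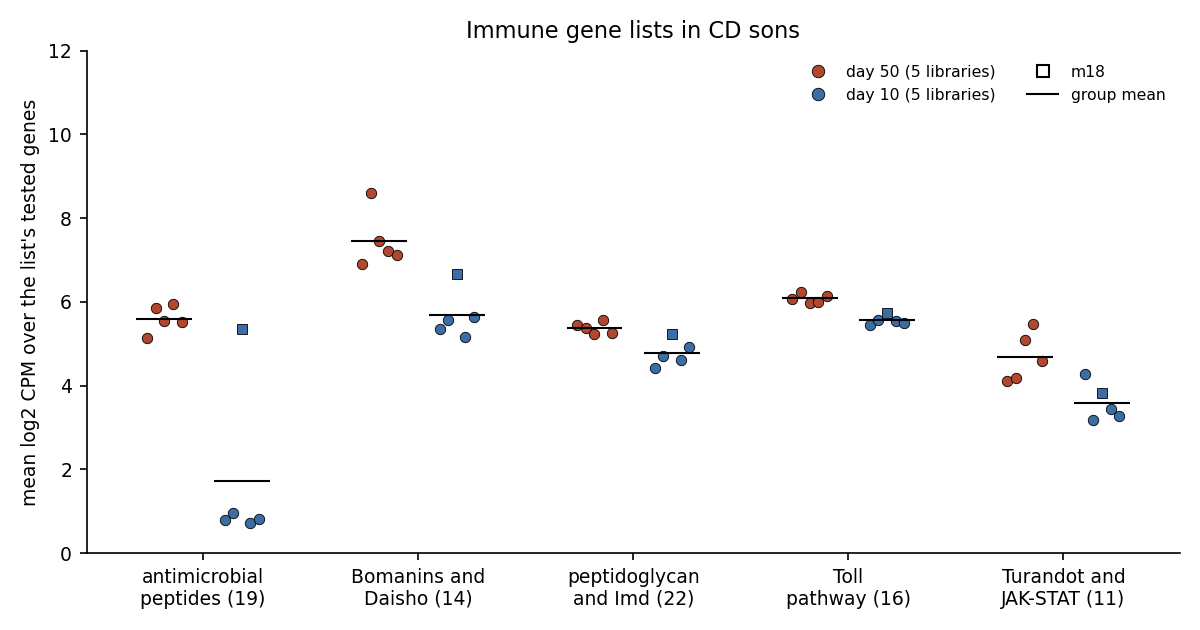
Immune gene lists in each library of CD sons. The vertical axis is the mean log2 CPM over the tested members of a list. Each point is 1 library, day 50 left and day 10 right, m18 is drawn as a square and the bar is the group mean. In antimicrobial peptide genes m18 sits at 5.35 among the day-50 libraries, and in the Bomanins and Daisho peptides the day-50 libraries sit between 6.91 and 8.60 and the day-10 libraries between 5.15 and 6.67.

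Transcripts of cytosolic ribosomal proteins rose almost as a whole. Of 93 tested, 85 rose and 3 fell, with a median log2 fold change of 0.76. Their summed level was 117200, 112200, 101600, 112500 and 112400 CPM in m31 to m35, against 67290, 67810, 63690, 65470 and 59510 CPM in m16 to m20, and each day-50 library was far above each day-10 library. RpL23A (FBgn0026372, chromosome arm 3L, bases 1666288 to 1668654) had 1811, 1835, 1726, 1876 and 1903 CPM in m31 to m35 at day 50, against 1007, 1055, 1030, 1074 and 1012 CPM in m16 to m20 at day 10, with a spread between libraries that was small beside the change (log2 fold change 0.82 ± 0.052, adjusted p = 5.17e-06). RpS5a, RpL30 and RpS24 rose by 0.84, 0.81 and 0.77. The 3 that fell were low-level relatives of ribosomal protein genes: RpL10Aa averaged 4.63 ± 4.89 CPM at day 50 and 56.7 ± 8.40 CPM at day 10, RpS28-like averaged 0.78 ± 0.32 CPM at day 50 and 6.22 ± 0.72 CPM at day 10 and RpS28a averaged 0.37 ± 0.28 CPM at day 50 and 2.97 ± 0.60 CPM at day 10. RpL10Aa was lowest in m31 and m35, the libraries lowest in spermatid genes, and its log2 fold change of -3.61 was -4.26 without m32 and -2.87 without m31 and m35. The spermatid genes took a smaller part of all counts at day 50 (summed levels above). The part of this shift in the rise of other genes was not tested. Mitochondrial ribosomal protein genes changed less, with 29 of 73 that rose, 5 that fell and a median of 0.17. The gene mRpS22 rose (log2 fold change 0.73 ± 0.072, adjusted p = 3.14e-05).

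Most proteasome and autophagy genes rose. Of 31 proteasome genes tested 19 rose and none fell (median 0.32). The catalytic subunit Prosbeta5 averaged 278 ± 50.6 CPM at day 50 and 130 ± 8.33 CPM at day 10 (log2 fold change 1.09 ± 0.12, adjusted p = 4.85e-05). The ATPase Rpt3 averaged 142 ± 21.6 CPM at day 50 and 73.9 ± 13.02 CPM at day 10. In autophagy 11 of 17 genes rose and 2 fell, with a median of 0.63 that was 0.42 without m31. ref(2)P, the p62 cargo receptor, had 798, 603, 580, 643 and 618 CPM in m31 to m35 at day 50, against 304, 314, 370, 320 and 426 CPM in m16 to m20 at day 10 (log2 fold change 0.90 ± 0.12, adjusted p = 0.000174). The conjugating enzyme Atg3 rose by 0.80 and the ubiquitin-like Atg8a by 0.61. The 2 that fell were Atg16 (-0.81) and the germline gene Atg8b described above. Among 30 heat shock and chaperone genes 10 rose and 7 fell, and the share that rose was close to that of all genes (33.7%). The small heat shock protein l(2)efl averaged 536 ± 139 CPM at day 50 and 126 ± 9.24 CPM at day 10, another, Hsp23, averaged 67.0 ± 12.3 CPM at day 50 and 24.1 ± 2.56 CPM at day 10. The constitutive chaperone Hsc70-4 averaged 3733 ± 174 CPM at day 50 and 2250 ± 215 CPM at day 10. All 3 rose. Hsp70Bb, one of several near-identical heat-inducible copies, chosen after its values were seen, had 44.4, 33.9, 31.4, 24.9 and 26.8 CPM in m31 to m35 at day 50, against 3.50, 5.68, 4.93, 2.25 and 0.16 CPM in m16 to m20 at day 10 (log2 fold change 3.27 ± 0.57, adjusted p = 0.000719). Hsc70-1 averaged 103 ± 10.1 CPM at day 50 and 280 ± 30.4 CPM at day 10 (log2 fold change -1.44 ± 0.097, adjusted p = 6.24e-06).

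Genes of oxidative energy metabolism fell by modest factors, many of them together. Of 71 nuclear genes of oxidative phosphorylation, 59 fell and 1, ND-20, rose, with a median log2 fold change of -0.42, where 32.6% of all genes fell. The rise of ND-20 (0.22, adjusted p = 0.0449) did not pass with median-of-ratios scaling (adjusted p = 0.114), with DESeq2, with other groups in the fit or without m16, m17, m18, m20, m31, m32, m33 or m34 (adjusted p between 0.0576 and 0.204 in these fits). Summed levels were 17810, 17750, 16870, 18960 and 18950 CPM in m31 to m35, against 24360, 22600, 22620, 26460 and 21880 CPM in m16 to m20, with no overlap. ND-MLRQ, a complex I subunit (FBgn0052230, chromosome arm 3L, bases 23339326 to 23345936), had 132, 124, 134, 133 and 129 CPM in m31 to m35 at day 50, against 314, 318, 325, 375 and 326 CPM in m16 to m20 at day 10 (log2 fold change -1.34 ± 0.065, adjusted p = 1.79e-06). The complex II subunits SdhA and SdhD fell, with log2 fold changes of -0.99 and -0.81, and so did UQCR-Q of complex III (-1.05). ND-B8, a gene of complex I, averaged 3.96 ± 1.28 CPM at day 50 and 25.9 ± 4.91 CPM at day 10 (log2 fold change -2.71 ± 0.23, adjusted p = 1.59e-05). Of the 13 genes of the mitochondrial genome 9 fell, among them mt:CoIII (-0.53 on the log2 scale), mt:Cyt-b (-0.61) and mt:CoI (-0.53). With all 15 CD sons in the fit 4 fell. In the citrate cycle 14 of 18 genes fell and none rose. mAcon1, an aconitase, averaged 754 ± 64.9 CPM at day 50 and 1837 ± 338 CPM at day 10 (log2 fold change -1.28 ± 0.12, adjusted p = 2.65e-05). Idh3b, of isocitrate dehydrogenase, fell by 0.82 on the log2 scale. When other groups entered the fit, the median changes moved little (-0.38 and -0.40 for the nuclear genes) but fewer passed. Of the 71 nuclear genes, 33 fell with all 15 CD sons in the fit and 21 with the sons of the 3 maternal diets. In the citrate cycle 8 and 6 fell. The first of these fits adds the CD sons of day 0, and the second keeps m27 and m45. Whether a wider spread between libraries in these fits lowered the counts was not tested.

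Glycolysis and muscle genes went the same way in part. In glycolysis 8 of 13 genes fell and 2 rose: Pfk, Ald1 and Gapdh1 had log2 fold changes of -0.82, -0.95 and -0.77, while Ldh, lactate dehydrogenase, had 80.5, 59.9, 75.5, 96.3 and 89.9 CPM in m31 to m35 at day 50, against 33.1, 37.5, 41.3, 39.1 and 45 CPM in m16 to m20 at day 10. Ldh rose without overlap (log2 fold change 1.04 ± 0.13, adjusted p = 0.000148), and Hex-A, a hexokinase, rose by 0.40. Of 30 sarcomere and flight muscle genes 15 fell and 4 rose, with a median of -0.30. TpnC4, a troponin C of flight muscle, averaged 30.98 ± 8.99 CPM at day 50 and 117 ± 29.8 CPM at day 10 (log2 fold change -1.92 ± 0.23, adjusted p = 9.84e-05). Act79B, a muscle actin, averaged 268 ± 51.5 CPM at day 50 and 618 ± 104 CPM at day 10 (log2 fold change -1.21 ± 0.16, adjusted p = 0.000183). Mf, the myofibril protein myofilin, averaged 1049 ± 170 CPM at day 50 and 2165 ± 296 CPM at day 10. Argk1, arginine kinase, fell by 0.93, and flr, an actin-binding WD-repeat protein, rose by 1.20. With the sons of the 3 maternal diets in the fit, 3 muscle genes fell, and TpnC4 and Act79B did not pass (adjusted p = 0.0621 and 0.14).

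**Figure D4:**
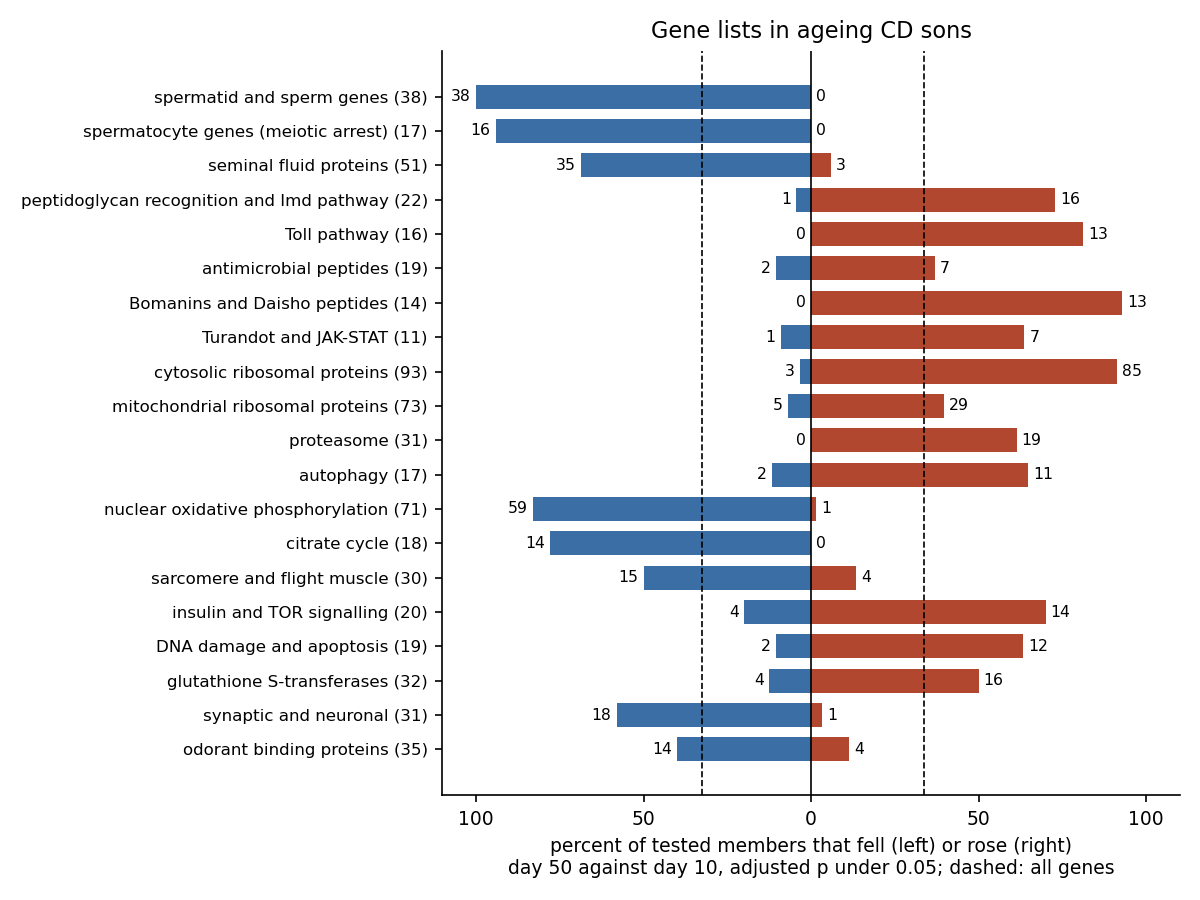
Share of the tested members of 20 gene lists that rose (right of 0) or fell (left of 0) in CD sons at day 50 against day 10. The horizontal axis is the percent of tested members, the numbers at the bar ends are counts of members, the number after each list name is the members tested, and the dashed lines mark the shares over all genes, 33.7% risen and 32.6% fallen. The bar of spermatid genes reaches 38 fallen and that of cytosolic ribosomal proteins 85 risen.

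Most insulin and TOR pathway genes rose while Ilp2 and Ilp5, insulin-like peptides made in the brain, fell. Of 22 listed genes 20 were tested, 14 rose and 4 fell, with a median of 0.67 that was 0.48 without m31. InR, the insulin receptor (FBgn0283499, chromosome arm 3R, bases 21570248 to 21619321), had 247, 97.8, 149.8, 125 and 109 CPM in m31 to m35 at day 50, against 38.4, 40.5, 31.3, 33.9 and 31.9 CPM in m16 to m20 at day 10, highest in m31 and without overlap (log2 fold change 2.05 ± 0.24, adjusted p = 8.82e-05). Akt rose by 1.17, S6k by 0.83 and ImpL2, a secreted protein that binds insulin-like peptides, by 1.01. Ilp2, made by the insulin-producing cells of the brain, had 13.6, 13.7, 9.89, 9.71 and 15.1 CPM in m31 to m35 at day 50, against 31.7, 31.2, 24.4, 26.6 and 21.3 CPM in m16 to m20 at day 10 (log2 fold change -1.12 ± 0.17, adjusted p = 0.000292). The next 3 were chosen after their values were seen. Ilp5, from the same cells, averaged 1.04 ± 0.47 CPM at day 50 and 3.73 ± 1.16 CPM at day 10 (log2 fold change -1.83 ± 0.33, adjusted p = 0.00086). Ilp6, the insulin-like peptide of the fat body, averaged 38.7 ± 8.32 CPM at day 50 and 18.9 ± 4.68 CPM at day 10 (log2 fold change 1.03 ± 0.20, adjusted p = 0.00132). Thor, the translation repressor 4E-BP, averaged 589 ± 337 CPM at day 50 and 190 ± 16.62 CPM at day 10, with 1171 CPM in m31 as the highest library (log2 fold change 1.63 ± 0.31, adjusted p = 0.00116).

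DNA damage, antioxidant and detoxification genes rose more often than they fell. Of 19 genes of DNA damage and apoptosis 12 rose and 2 fell, with a median of 0.78. Irbp, the Ku70 subunit of end joining, had 31.8, 23.98, 28.7, 27.03 and 28.98 CPM in m31 to m35 at day 50, against 7.53, 7.81, 7.70, 9.45 and 7.04 CPM in m16 to m20 at day 10 (log2 fold change 1.83 ± 0.11, adjusted p = 4.49e-06). Xrp1 and its partner Irbp18, bZIP factors of stress and DNA damage responses, rose by 1.05 and 0.98, p53 by 1.24 and Gadd45 by 1.87. Gadd45 was highest at day 10 in m18 with 22.1 CPM. Of the cell death genes, grim averaged 1.04 ± 0.29 CPM at day 50 and 3.51 ± 0.46 CPM at day 10 (log2 fold change -1.75 ± 0.22, adjusted p = 0.000112). The genes rpr and hid did not pass (adjusted p = 0.0839 and 0.11). Among 25 antioxidant genes 14 rose and 3 fell (1 without m33, m34, m18 or m20). Gtpx, Prx2 and Trxr1, enzymes of peroxide and thioredoxin reduction, rose by 0.73, 0.61 and 0.52, the transcription factor cnc by 0.64 and Irc, the immune-regulated catalase, by 1.72. The classical enzymes, looked up after their values were seen, did not pass. Sod1 averaged 494 ± 46.8 CPM at day 50 and 536 ± 37.5 CPM at day 10, Sod2 averaged 112 ± 8.45 CPM at day 50 and 122 ± 7.95 CPM at day 10 and Cat averaged 752 ± 47.1 CPM at day 50 and 874 ± 137 CPM at day 10. Of 32 glutathione S-transferases tested 16 rose and 4 fell (2 without m17). GstD2 averaged 32.8 ± 13.4 CPM at day 50 and 4.79 ± 1.001 CPM at day 10 (log2 fold change 2.77 ± 0.29, adjusted p = 4.22e-05). GstE1 rose by 1.30 and GstE11 by 1.09, and GstS1 fell by 1.07 (adjusted p = 0.0881 with the sons of the 3 maternal diets in the fit). Of 80 cytochrome P450 genes tested, of 87 listed, 31 rose and 14 fell, a share of rises near that of all genes. Cyp4p1 averaged 229 ± 24.7 CPM at day 50 and 77.4 ± 6.99 CPM at day 10 and Cyp6a9 averaged 80.1 ± 19.9 CPM at day 50 and 27.1 ± 1.61 CPM at day 10, both of which rose, and Cyp305a1 fell by 1.55.

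Most synaptic and neuronal genes fell. Of 31 synaptic and neuronal genes 18 fell and 1 rose, with a median of -0.48. Gad1, which makes the transmitter GABA, had 72.5, 77.6, 59.0, 69.3 and 108 CPM in m31 to m35 at day 50, against 190, 199, 169, 204.8 and 148 CPM in m16 to m20 at day 10, without overlap (log2 fold change -1.24 ± 0.16, adjusted p = 0.000148). The acetylcholine receptor subunit nAChRbeta1 fell by 1.19 on the log2 scale. The vesicular transporters VAChT and Vmat and the glial glutamate transporter Eaat1 fell, with log2 fold changes of -0.86, -0.64 and -0.63. Syx1A, chosen after its values were seen, was the 1 that rose (0.44). In photoreceptor genes 5 of 30 fell and 2 rose, both smaller shares than among all genes, and 11 fell without m35. The photoreceptor channel trpl averaged 257 ± 124 CPM at day 50 and 703 ± 101 CPM at day 10 (log2 fold change -1.45 ± 0.30, adjusted p = 0.00197), and rdgB, which transfers phosphatidylinositol, fell by 0.73. The gene laza, a lipid phosphatase, rose by 1.06. Of 35 odorant binding protein genes tested 14 fell, a share not far above that of all genes, and 4 rose. Obp44a had 46.9, 54.5, 64.6, 47.8 and 104 CPM in m31 to m35 at day 50, against 523, 462, 428, 395 and 407 CPM in m16 to m20 at day 10 (log2 fold change -2.80 ± 0.23, adjusted p = 1.23e-05). Obp99b averaged 84.3 ± 15.5 CPM at day 50 and 560 ± 209 CPM at day 10 (log2 fold change -2.73 ± 0.27, adjusted p = 3.19e-05). Obp99a, at 6.14 ± 4.37 CPM at day 50 and 122 ± 19.96 CPM at day 10, was lowest in m31 and m35, as the spermatid genes were, with a log2 fold change of -3.72 without them.

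More cuticle protein genes fell than rose, and 2 of 7 listed larval storage protein genes fell. Of 129 cuticle protein genes listed, only 40 had enough counts to be tested. 21 fell and 8 rose. TwdlD averaged 0.71 ± 0.31 CPM at day 50 and 8.43 ± 1.72 CPM at day 10 (log2 fold change -3.56 ± 0.28, adjusted p = 1.02e-05), Cpr47Ee 4.56 ± 0.81 CPM at day 50 and 16.1 ± 2.23 CPM at day 10 and Cpr65Au 67.8 ± 11.4 CPM at day 50 and 157 ± 25.6 CPM at day 10, and all 3 fell. Of the storage proteins of the larval fat body, Lsp1beta averaged 6.90 ± 5.97 CPM at day 50 and 97.1 ± 26.4 CPM at day 10 and Lsp2 averaged 13.1 ± 14.1 CPM at day 50 and 287 ± 118 CPM at day 10. Both fell, with log2 fold changes of -3.82 and -4.45. Their highest day-50 library was m35, and without it the changes were -4.47 and -5.30. Of the other 5 of that list, 4 had too few counts and 1 did not pass (log2 fold change -0.66). Of 22 blood cell genes 9 rose and 6 fell, shares near those of all genes (33.7% and 32.6%). PPO1, a prophenoloxidase of crystal cells, had 2.003, 2.34, 2.81, 5.23 and 4.83 CPM in m31 to m35 at day 50, against 25.4, 32.01, 40.7, 27.1 and 53.8 CPM in m16 to m20 at day 10 (log2 fold change -3.38 ± 0.33, adjusted p = 2.95e-05). PPO2, the other, averaged 8.45 ± 3.12 CPM at day 50 and 41.1 ± 9.41 CPM at day 10 (log2 fold change -2.28 ± 0.25, adjusted p = 5.38e-05). The phagocytic receptors crq and drpr rose by 0.88 and 0.98. In lipid metabolism 8 of 24 genes rose, as large a share as among all genes, and 1 fell (2 without m16). Npc2e, a member of the NPC2 sterol-binding family, had 32.2, 45.2, 105, 155 and 71.5 CPM in m31 to m35 at day 50, against 0.65, 1.63, 5.27, 2.69 and 8.07 CPM in m16 to m20 at day 10 (log2 fold change 4.45 ± 0.67, adjusted p = 0.000349). The lipid transfer particle Apoltp rose by 1.16 and the regulator SREBP by 1.04. The gene mag, a lipase of the gut, averaged 7.998 ± 3.63 CPM at day 50 and 70.7 ± 49.9 CPM at day 10 (log2 fold change -3.14 ± 0.55, adjusted p = 0.00073).

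Ribonucleotide reductase genes rose, and chromatin genes rose more often than they fell. RnrL, the large subunit of ribonucleotide reductase, averaged 24.9 ± 5.14 CPM at day 50 and 3.77 ± 0.69 CPM at day 10. RnrS, the small subunit, averaged 25.2 ± 4.35 CPM at day 50 and 7.65 ± 0.55 CPM at day 10. They rose by 2.71 and 1.72. In the cell cycle list 12 of 26 genes rose and 4 fell, and 6 rose with all 15 CD sons in the fit. CycB3 and polo, which act in cell division, fell, with log2 fold changes of -1.90 and -1.89. Of 20 germline and piRNA genes tested 9 rose and 4 fell. Library m33 stood above the rest in both lists, with a mean log2 CPM of 4.08 in germline and piRNA genes, against 2.54 to 3.07 in the other day-50 libraries and 2.63 to 2.87 at day 10, and of 3.54 in cell cycle genes, against 2.47 to 2.92 and 2.43 to 2.61. Without m33, 7 germline and piRNA genes rose and 6 fell, with a median log2 fold change of 0.15 (0.63 with it), and 9 cell cycle genes rose and 5 fell. rhi, which was also highest in m33, is a heterochromatin protein of the piRNA pathway and averaged 2.33 ± 1.22 CPM at day 50 and 0.33 ± 0.19 CPM at day 10 (log2 fold change 2.85 ± 0.45, adjusted p = 0.000433, and 2.45 without m33) and squ fell by 1.74. Of 30 genes of Polycomb, heterochromatin and histone methylation 16 rose and 2, Kdm4A and Kdm4B, fell, with a median of 0.36. Set1, a histone H3 methyltransferase, rose by 0.48. Kdm4B, a demethylase, fell by 0.65.

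The change with age in sons was set against that in daughters of the same control-diet mothers, as the difference of the 2 log2 fold changes (sons minus daughters). This difference passed the test for 5410 genes, 3287 of them with the higher change in sons (25.9%) and 2123 with the lower (16.7%). With median-of-ratios scaling the median difference over all genes was -0.08, against 0.02 with TMM, and 52.1% of 5401 calls were on the higher side, against 60.8%. DESeq2 gave 47.2% of 6317. The direction of small differences therefore depends on the scaling. The 5 genes with the smallest p differed by 1.5 or more. CG7203 had between 1.89 and 4.62 CPM at day 50 and between 9.75 and 16.3 CPM at day 10 in sons, and between 0.17 and 0.87 CPM at day 50 and between 352 and 872 CPM at day 10 in daughters, a difference of 7.99 ± 0.46 (adjusted p = 7.66e-09). Cpr49Ae, a cuticle protein gene, differed by 6.54 ± 0.39 in the same way. cnn, the casein kinase gish and the DnaJ co-chaperone mrj fell in sons, with log2 fold changes of -1.29, -1.30 and -1.18. In daughters, in a fit of their own, cnn and mrj did not pass and gish rose. The differences come from 1 fit of both sexes, whose scaling moved the median log2 fold change over all genes by -0.04 in sons and 0.16 in daughters relative to the fits by sex. On that scale cnn changed by -1.33 in sons and 0.27 in daughters, gish by -1.34 in sons and 0.34 in daughters and mrj by -1.22 in sons and 0.33 in daughters. Their differences were -1.60 ± 0.10, -1.68 ± 0.11 and -1.55 ± 0.11. Charon, Tspo and Sting rose more in sons than in daughters, with differences of 1.43, 1.16 and 1.03. For Charon and Tspo every day-50 library of sons lay above every day-50 library of daughters. At day 10 Charon was lower in sons, with 12.82 to 14.75 CPM against 18.49 to 28.78 CPM in daughters. Tspo was already higher in sons at day 10, with 99.74 to 111.4 CPM against 76.34 to 91.87 CPM in daughters. Sting overlapped at day 50, with 69.95 to 88.27 CPM in sons and 70.03 to 114.7 CPM in daughters. At day 10 it was lower in sons, with 11.89 to 16.66 CPM against 19.95 to 43.36 CPM in daughters. Of the 93 cytosolic ribosomal protein genes 84 had the higher change in sons and 1 the lower, with a median difference of 0.68. Of 71 nuclear genes of oxidative phosphorylation 54 had the higher change in sons (median difference 0.58). Both counts stand beside 25.9% of all genes. A higher change means a more positive log2 fold change and need not be a rise. In the fit of sons alone 59 of these 71 genes fell (median -0.42).

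The sons of HFD mothers, which share no library with the CD sons, changed in the same direction in most genes called in both. The change was smaller in several of the genes and lists given here. In HFD sons 5398 of 12547 genes were called (43%), and 4511 of the 4559 genes called in both lines moved the same way, which is 84.1% of the HFD calls and 55.1% of the CD calls among genes tested in both. The difference of the 2 changes (HFD minus CD) passed for 3796 genes (29.7%), 2740 higher (21.4%) and 1056 lower (8.26%). With median-of-ratios scaling the split was 61.1% higher of 4211 calls, against 72.2%, and with DESeq2 59.3% of 4520. In spermatid genes, all 38 of which fell in CD sons, 35 of 38 had the higher (more positive) change in HFD sons, with a median difference of 2.70. Without m31 and m35 it was 37 of 38, with a median of 2.05. betaTub85D had 470, 450 and 358 CPM in HFD sons at day 50 and between 633 and 895 CPM at day 10, a difference to the change in CD sons of 2.94 ± 0.92 (adjusted p = 0.0240), and 2.25 without m31 and m35. Of 51 seminal fluid genes 36 had the higher change in HFD sons. Charon had 20.9, 18.9 and 27.6 CPM in HFD sons at day 50, against 12.6 to 16.4 CPM at day 10, a rise of 0.75 ± 0.14 in place of 2.92 in CD sons (difference -2.17 ± 0.17, adjusted p = 1.12e-05). Sting (-1.72 ± 0.21), Tspo (-1.07 ± 0.10) and Nazo (-3.23 ± 0.74) also rose less in HFD sons, with adjusted p of 0.000158, 1.99e-05 and 0.00487. Arc1 rose by 3.28 in HFD sons and did not differ detectably (-0.18 ± 0.21, adjusted p = 0.58). Of the 93 cytosolic ribosomal protein genes 84 rose in HFD sons, with 3 higher and 3 lower in the test of the difference.

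**Figure D5:**
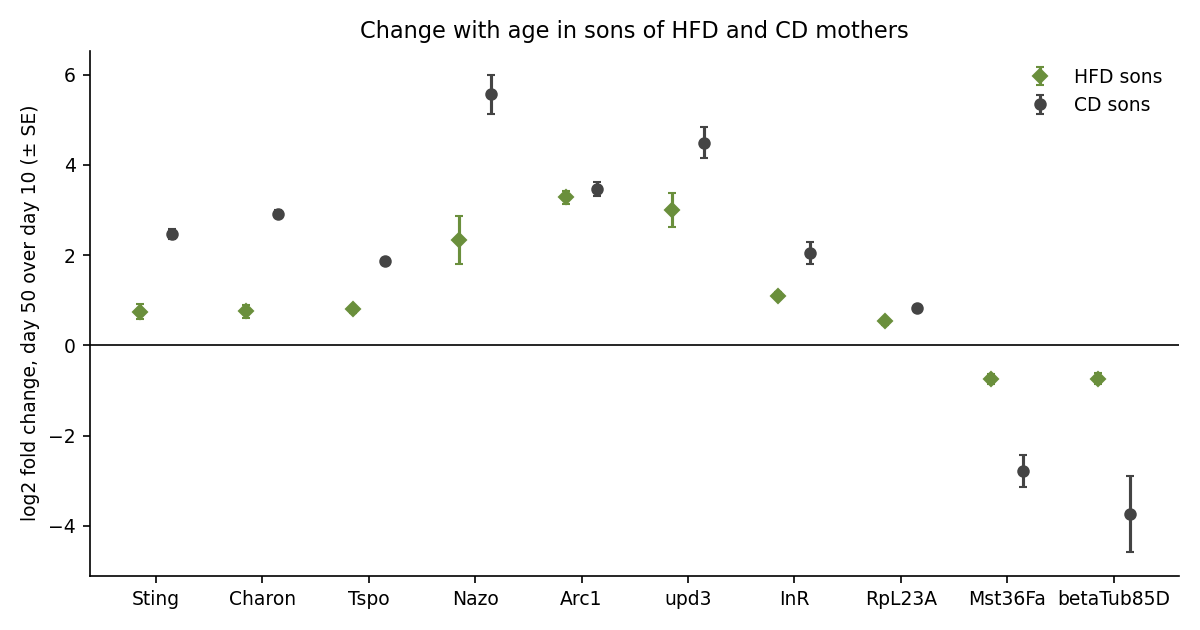
Log2 fold change of day 50 over day 10 in HFD sons (left point of each pair) and CD sons (right point) for 10 genes, with bars of 1 SE derived from edgeR's F statistic (3 and 5 HFD libraries and 5 and 5 CD libraries). The points of Sting, Charon, Tspo, Nazo and betaTub85D sit closer to 0 in HFD sons, and those of Arc1 are at 3.28 and 3.47.

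In the sons of HSD mothers no gene was called by edgeR (1760 at an unadjusted p below 0.05, and 108 called by DESeq2). In this line 2 of the 11 libraries went against their day label. Library m27, labelled day 10, had 23.8 CPM of betaTub85D and 60.7 CPM of Sting, whereas CD sons on the same scale had between 4.15 and 129.5 CPM of betaTub85D and between 70.1 and 89.1 CPM of Sting at day 50. Library m45, labelled day 50 and carrying the strain label W1119, had 638 CPM of betaTub85D and 6.90 CPM of Sting, whereas CD sons had between 621 and 819 CPM of betaTub85D and between 11.01 and 15.78 CPM of Sting at day 10. Leaving out these 2 libraries was chosen after their levels were set beside those of CD sons, which favours agreement between the lines. Without them 6010 genes were called (48%). Of these, 5471 moved as in CD sons, 91.7% of the HSD calls and 66.7% of the CD calls among genes tested in both. The difference to CD sons (HSD minus CD) then passed for no gene, as with the 2 libraries (581 without and 836 with them at an unadjusted p below 0.05; DESeq2 called 3 with them). A p that misses the threshold does not show that the 2 lines aged alike.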

How the data were processed

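Total RNA of whole flies was extracted in Qiazol and cleaned on columns, with a DNase step, per the labels' protocols. The deposited values are counts per gene, whole numbers in 1 table of 14312 genes (10 without a symbol). Per the submitters' processing notes the authors used kallisto, the build BDGP6, R 4.2.0 and DESeq2 1.36.0; the notes give these names without order or settings. Kallisto divides reads between similar transcripts by likelihood, which makes counts of near-identical genes uncertain, and whether strand was used was not stated, so overlapping genes may share reads.

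Genes were filtered with filterByExpr (minimum count 10, minimum total count 15), scaled by TMM and tested with edgeR 4.0.16 (quasi-likelihood F test, limma 3.58.1, R 4.3.3), with Benjamini-Hochberg adjustment over all genes tested and a threshold of 0.05. The difference between sexes or maternal lines in the change with age was an interaction term over 4 groups. Log2 CPM used a prior count of 1. Libraries were grouped by their labels; a chi-square comparison of the 20 pairs of libraries of the same day gave at least 12.62 for each degree of freedom, far above sampling noise, and every library was counted as its own sample. Gene coordinates are those of annotation BDGP6.54, matched by gene ID.

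The libraries of the comparison follow from the labels; the comparison itself, its members and 43 gene lists (1293 members, 6 unmatched) were chosen with earlier results of these data known. Named were the 10 largest rises, the 10 largest falls and the 10 smallest p among called genes with a mean of at least 1 CPM and days that did not overlap, up to 5 members of each list by smallest p (any member of a list of 20 or fewer), the marker genes Acp36DE, osk, Yp1 and betaTub85D, and the 5 smallest p of the interaction with sex; others are marked where they stand. Alternatives were median-of-ratios scaling, no filter, DESeq2 1.42.0, other groups in the fit, a fold beyond 1.5, and leaving out each library in turn. For CD sons, the other groups were the CD sons of day 0, or the HFD and HSD sons of day 10 and 50 with m27 and m45 kept. Leaving out m31 with m35, or m27 with m45, was chosen after seeing the data. Intervals and floors cover counting error only.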

Additional observations from a re-analysis of the deposited data

Results flagged for a closer look

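Within the 5 libraries of a day, single libraries were checked for values far from the others by Dixon's ratio (critical value 0.71 for 5 libraries). Of 486 groups of 5 tested, 28 were marked (5.76%), where chance marks about 1 in 20. The genes checked were those named above, some of them chosen after their values were seen, and the list means share members with them. The marks are therefore not independent, and their count is not a test.

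Library m18 was marked 9 times, each time as the highest at day 10. Its antimicrobial peptide genes had a mean log2 CPM of 5.35. Among genes of that list chosen after their values were seen, Dro stood at 211.9 CPM, DptA at 236 CPM, DptB at 303.2 CPM, AttA at 599.6 CPM and Mtk at 96.79 CPM. The NF-κB factor Rel stood at 184.1 CPM there, BomBc1 at 162.9 CPM and Gadd45 at 22.13 CPM.

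Library m31 stood highest at day 50 for l(2)efl (778.2 CPM), SREBP (925.4 CPM), Rpt3 (180.2 CPM), Cyp6a9 (114.8 CPM) and Ccp84Ag (0.087 CPM, a single count), and lowest for Vago (30.56 CPM). Library m19 stood highest at day 10 for ND-MLRQ (375.2 CPM), ND-20 (316.7 CPM), Gapdh1 (1038 CPM) and the citrate cycle genes (mean log2 CPM 8.999), all genes of energy metabolism. Library m20 stood highest at day 10 for Rpt3 (96.72 CPM), Atg3 (45.55 CPM) and CG34005 (0.079 CPM, a single count) and lowest for Hsp70Bb (0.158 CPM). Each of the following was marked once: m17 for Drsl3 at day 10 (0.071 CPM, a single count), m32 for BomS3 at day 50 (1284 CPM, high), m33 for SP at day 50 (27.35 CPM, low), m34 for the mitochondrial ribosomal protein genes at day 50 (mean log2 CPM 4.40, high) and m35 for Hsp23 at day 50 (45.53 CPM, low).

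The change with age differed between sons and daughters for 5410 genes by the interaction term in edgeR. As differences of log2 fold changes, sons minus daughters, CG7203 had 7.99, Cpr49Ae 6.54, Charon 1.43, Tspo 1.16, Sting 1.03, cnn -1.60, gish -1.68 and mrj -1.55. Between HFD sons and CD sons it differed for 3796 genes. The differences, HFD minus CD, were 2.94 for betaTub85D, -3.23 for Nazo, -2.17 for Charon, -1.72 for Sting and -1.07 for Tspo.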

How the results depend on the processing

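In CD sons the number of called genes was 8224, lay between 7751 and 8215 without each library in turn, and between 7231 (sons of 3 maternal diets in the fit) and 8597 (no filter) under the other scalings, filters, fits and DESeq2. When a change beyond 1.5-fold had to be shown it was 3975, of which 1285 rose and 2690 fell, a stricter test by its construction. Over the genes named for CD sons and the alternatives tried, 3365 values kept their direction and side of the threshold, 52 lost the call (26 of them with the 1.5-fold test) and 14 gained it. Taf12L, which was not called, turned to 0.181 on the log2 scale without m31 and m35, and ranged between -0.76 and 0.038 over single libraries left out; the cause was not tested. Counts of risen or fallen list members stayed within 1.5 times the main count in 1275 values and moved further in 119. The difference between sons and daughters passed for 4962 to 6317 genes, and that between HFD and CD sons for 3103 to 4520. In HSD sons the 0 called genes became 108 with DESeq2, 6010 without m27 and m45, and 0 to 372 over single libraries left out, with 372 when m27 was left out. The 0 genes that differed between HSD and CD sons became 3 with DESeq2. No paired analysis was possible because the replicate numbers were given in accession order and the labels tie no library of one day to a library of the other. Genes with a few counts per library were precise only to wide counting intervals.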
